A study of Gallus gallus with 3 samples.

Results

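Antioxidant and redox defence genes of the chicken embryo crista were taken from the deposited gene names. The symbols kept were those of the superoxide dismutases (SOD), glutathione peroxidases (GPX), peroxiredoxins (PRDX), thioredoxins (TXN), glutathione S-transferases (GST), glutaredoxins (GLRX), methionine sulphoxide reductases (MSRA, MSRB), sestrins (SESN), SELENO-named selenoproteins, haem oxygenases (HMOX) and metallothioneins (MT). Also kept were *CAT*, *GSR*, *GCLC*, *GCLM* and *NQO1*. The rule found 72 genes among the 30108 genes of the files, of which 15097 have a symbol. The names do not separate redox enzymes from relatives with other work, so that *TXNL4A* and *TXNL4B*, which belong to the splicing machinery, are among them.

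These genes were read in 3 libraries of chicken (Isa Brown) embryos, without a replicate for any of them, and no drug treatment is named for any. The library of the type I hair cell came from 1 cell at embryonic day 20 (E20), and that of the type II hair cell from 1 cell at E19. Both cells lay in the crista of a semicircular canal, were typed by whole-cell recording from the presence or absence of a low-voltage-activated K+ current, and had their cytoplasm drawn into the patch pipette. Cells entered sequencing by a score of the extraction, and others were then dropped for contamination or low transcript counts. The third library is of whole ampullary cristae at E16, pooled from 22 embryos. Age, tissue, RNA input, the library kits given in the methods and read layout thus all change together between the hair cells and the organ and cannot be told apart. The paper names no pipeline for the hair cell libraries, so that a difference in read mapping cannot be told apart either. Eggs of both sexes were used, and the paper gives no sex for any of the libraries. For the 5 of the 72 genes on chromosome Z, among them *TXN* and *SELENOP1*, a part of sex in the levels was not tested.

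Superoxide leaks from the respiratory chain of every cell. Superoxide dismutases turn it into hydrogen peroxide, which catalase, glutathione peroxidases and peroxiredoxins reduce to water, and glutathione and thioredoxin are then regenerated by reductases that use NADPH. Hair cells are known for their sensitivity to oxidative damage by aminoglycoside antibiotics and cisplatin, which makes their own complement of these enzymes of interest.

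The authors' files give an estimated number of reads per gene and its level in TPM, a count of transcripts scaled to gene length and to the library total. Estimated reads totalled 10779664 in the type I cell, 11943061 in the type II cell and 67428006 in the whole crista. The hair cell libraries were close to each other. They shared 1975 of the 2340 and 2381 genes detected, and 98.6% of the 1327 genes that reached 100 reads in each lay within 2-fold in TPM. Whether material was shared between these libraries was not tested, so that a like value in both cells is not counted here as a repeat. Of 21 hair-cell markers that matched a symbol, 8 had a read in both hair cells, where 10.9% of all genes detected in the crista did. At least 2-fold above the crista in both cells in TPM were *OCM1*, *KCNA10* and *USH1C*. At least 2-fold below it were *MYO6*, *LOXHD1* and *CHRNA9*, while *TMC1* and *CIB3* were neither. *MYO7A*, *POU4F3* and *GFI1* had no read. Of the 19 markers with at least 100 reads over all libraries, 3 were higher by this measure and 14 lower, against 4.86% and 92.2% of all such genes. Of 11 supporting-cell markers, 4 had a read in both, with summed levels of 1362 TPM in the type I cell, 1617 TPM in the type II cell and 15987 TPM in the crista. Highest of them in the hair cells were *COCH* (1007 and 1238 TPM, 11434 TPM in the crista) and *GJB6* (349 and 374 TPM, 1316 TPM in the crista). *SOX2* had 0 estimated reads in both cells, whereas the paper lists its transcript in both. In the crista *SOX2* stood at 1.70 TPM, and of all genes under 10 TPM there 3.41% were read in both hair cells. Mesenchyme markers summed to 486 and 374 TPM in the hair cells and 2873 TPM in the crista (3 of 7 with a read in both cells, *COL3A1* and *DCN* at 0). Among them *COL1A1* stood at 397 and 307 TPM in the hair cells, against 356 TPM in the crista. *SOX10* alone of 6 glial markers was read, at 70.8 and 86.7 TPM against 52.9 TPM in the crista, with *MBP* at 0. Of 5 dark cell markers *KCNE1* alone was read, with 338 and 320 reads against 28268 in the crista. Of 6 melanocyte markers *MITF* alone was read, with 16 and 21 reads against 2734. Of 8 neuron markers *SNAP25* alone was read, with 4 reads in the type II cell. None of the 7 erythroid, 6 endothelial and 8 immune markers had a read in a hair cell, whereas in the whole crista they summed to 30768, 85.3 and 457 TPM. The part of these cells in the levels below was not tested.

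Every one of the 72 genes was read in the whole crista, against 59.8% of all genes. In each hair cell 22 of the 72 had a read (30.6%, exact binomial 95% interval 20.2 to 42.5%), where 7.77% of all genes did so in the type I cell and 7.91% in the cell of type II. The same 21 genes were read in both cells (background over all genes 6.56%). These backgrounds count all 30108 genes, 15011 of them with an identifier alone, whereas each of the 72 has a symbol. A background over genes with a symbol alone was not computed, so that the distance between the shares is not read as an excess. *SELENON* had 2 reads in the type I cell alone and *GSTCD* 1 read in the type II cell alone. The other 49 genes had no read in either cell.

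**Figure D1:**
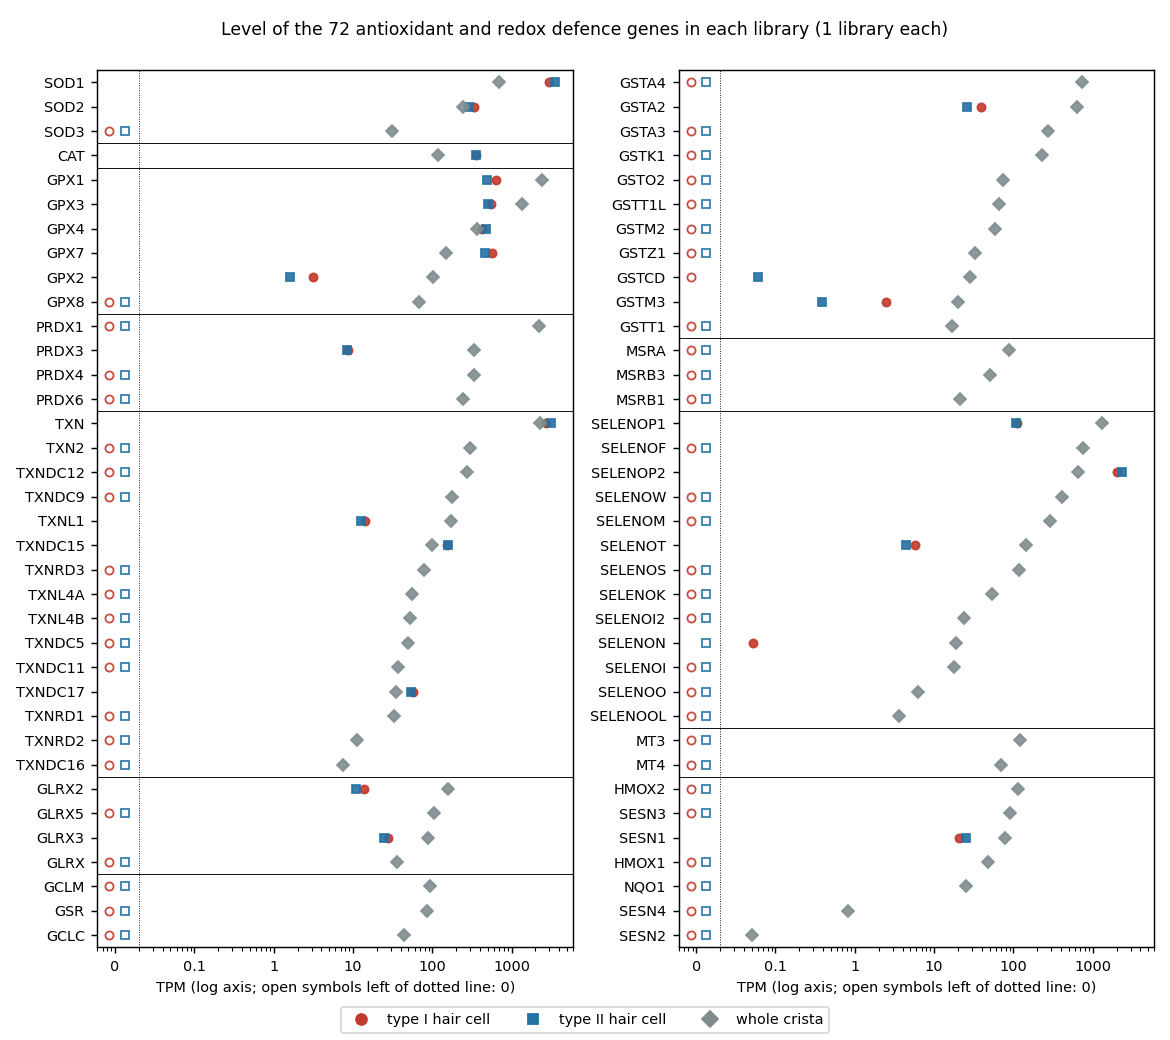
Level of each of the 72 genes in TPM on a log axis, grouped by class with lines between classes. Circles stand for the type I cell, squares for the type II cell and diamonds for the whole crista, and open symbols at the left edge are levels of 0. The hair cell symbols lie together for most genes that have reads, and 49 genes are at 0 in both hair cells.

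Detection followed the level in the organ. Of the 32 genes at 100 or more whole-crista TPM, 16 were read in both hair cells (50.0%), where 40.3% of all genes of that level were. Of the 40 genes below that level, 5 were read in both (12.5%, against 7.69% of all such genes). In the band of 30 to 100 TPM, 4 of 26 redox genes were read in both (15.4%), against 17.7% of all genes. In the bands of 100 to 300 and 300 to 1000 TPM, 7 of 17 and 5 of 10 redox genes were, against 30.5% and 56.1% of all genes. In these bands the shares for the redox genes lay near those of other genes of like abundance. At both sides of 100 TPM each background share fell within the 95% interval of its redox share (31.9 to 68.1% and 4.19 to 26.8%). These intervals are wide and exclude little. Under 100 TPM the 2 sets also differ in level, since 9451 of all 16239 genes but 5 of the 40 redox genes lay under 10 TPM.

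**Figure D2:**
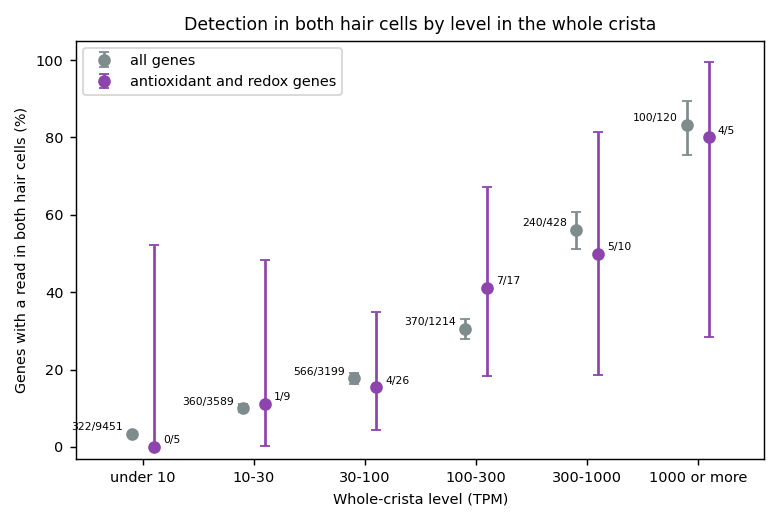
Share of genes with at least 1 read in both hair cells, in percent, by band of whole-crista TPM, for all genes (grey) and for the 72 redox genes (purple). Bars are exact binomial 95% intervals for counting error only, and the fractions beside the points give genes read of genes in the band. From the lowest to the highest band the share of all genes climbs from 3.41% to 83.3%.

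The 72 genes together held 1.11% of the TPM of the type I cell, 1.19% of the type II cell and 1.96% of the whole crista. *SOD1*, *TXN* and *SELENOP2* alone made up 69.9% of that sum in the type I cell and 74.8% in the cell of type II. In the organ the sum was spread more widely, and its leading 3 genes, *GPX1*, *TXN* and *PRDX1*, held 35.3%. Median levels of the detected genes were 83.8 and 81.5 TPM in the hair cells, against 13.5 and 10.2 TPM over all detected genes. In the crista the medians were likewise apart, at 88.4 TPM against 8.54 TPM.

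**Figure D3:**
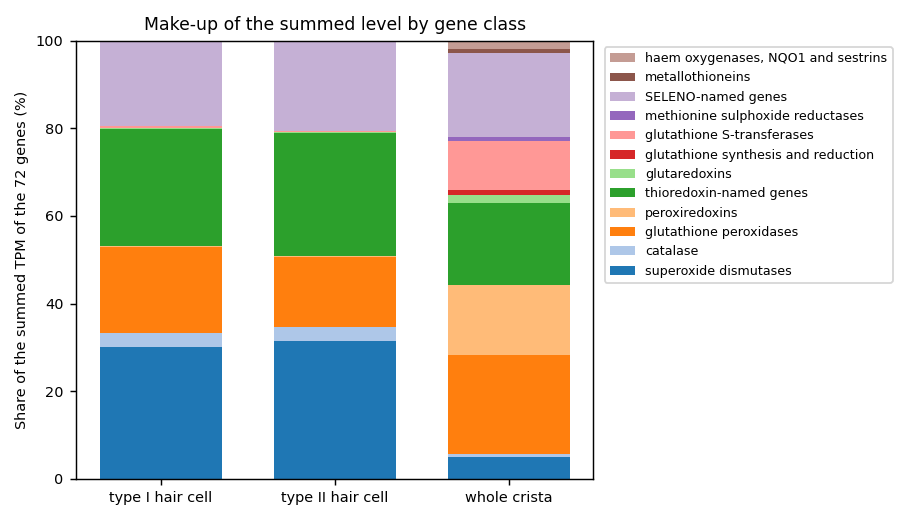
Stacked bars of the share of each gene class in the summed TPM of the 72 genes, in percent, 1 bar per library. Superoxide dismutases take 30.05% and 31.5% of the hair cell bars and 4.97% of the whole crista, while peroxiredoxins take 15.97% in the whole crista and under 1% in the hair cells.

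*SOD1* (ENSGALG00010011746, chromosome 1, 104747189 to 104751949 on GRCg7b, the build of all positions given here), the copper-zinc dismutase of the cytosol, was the most abundant of the 72 genes in both hair cells. It had 17565 estimated reads or 2988 TPM in the type I cell, 21176 reads or 3477 TPM in the type II cell, and 16356 reads or 704 TPM in the whole crista. The hair cell levels were thus 4.24 and 4.94 times that of the organ in TPM, and 6.72 and 7.31 times in CPM, which scales reads to the library total but not to length. Over the 1673 genes with at least 10 reads in every library, the median log2 ratio of hair cell to crista was 0.11 and -0.05 in TPM, and 0.64 and 0.40 in CPM. Among all genes *SOD1* ranked 46 in the type I cell, 30 in the type II cell and 186 in the crista. *SOD2* (chromosome 3, 45320396 to 45327181), the manganese enzyme of mitochondria, stood at 338, 287 and 242 TPM in the type I cell, the type II cell and the crista, less than 2-fold apart, while in CPM the hair cells were 2.37 and 1.96 times the organ. The secreted *SOD3* had no read in the hair cells and 31.2 TPM in the organ. Superoxide dismutases were 1 of the 2 classes with a summed level more than 2-fold higher in both hair cells than in the crista, and this rested on *SOD1*, which held 89.8% and 92.4% of the class.

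Catalase was the other such class. *CAT* (ENSGALG00010024911, chromosome 5, 18220734 to 18239421), which breaks down hydrogen peroxide in peroxisomes, had 12170 reads in the type I cell and 13895 in the type II cell, which is 358 and 361 TPM. The whole crista stood at 118 TPM, so that the hair cells stood at 3.03 and 3.06 times the organ, and in CPM at 5.72 and 5.90 times. Between the cells its TPM ratio, type I to type II, was 0.992 (interval 0.968 to 1.02).

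Glutathione peroxidases reduce peroxides, most but not all of them with glutathione, and 5 of the 6 were read in both hair cells. Of all genes detected in the crista 10.9% were. By band of crista TPM the share was 83.3% at the level of *GPX1* and *GPX3* and 56.1% at that of *GPX4*. It was 30.5% at the level of *GPX2* and *GPX7*, and 17.7% at that of *GPX8*, the unread one. *GPX1*, the cytosolic enzyme and the most abundant redox gene of the organ at 2415 TPM, reached 636 TPM in the type I cell and 486 TPM in the cell of type II, 3.80- and 4.97-fold below the organ. *GPX3*, the secreted form, stood at 552, 499 and 1346 TPM. Both are selenoproteins and were at least 2-fold lower in both hair cells in TPM, a call that *GPX3* lost in CPM, where the type I cell stood at 0.571 of the organ. *GPX4*, also a selenoprotein, which reduces lipid peroxides in membranes, had 418 and 478 TPM in the hair cells and 372 TPM in the crista. *GPX7* (ENSGALG00010024905, chromosome 8, 24131723 to 24140316), an enzyme of the endoplasmic reticulum without selenocysteine, had 6863 and 6132 reads, or 571 and 459 TPM, against 150 TPM in the crista. It was 3.81 times higher in the type I cell and 3.06 times higher in the cell of type II. Its relative in the same compartment, *GPX8*, had no read in either cell and 67.9 TPM in the organ. *GPX2*, best known from the gut, had 9 reads in the type I cell (95% interval 4.12 to 17.1) against 5 in the type II cell (1.62 to 11.7) and 1484 in the organ.

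In the hair cells the peroxidase family was thus spread over *GPX1*, *GPX3*, *GPX4* and *GPX7*, which held between 19.2% and 29.2% of its TPM in the type I and between 23.9% and 25.9% in the type II cell. In the organ *GPX1* took 54.3% and *GPX7* 3.37%.

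Peroxiredoxins reduce peroxides through a reactive cysteine and are recharged by thioredoxin. *PRDX1* (ENSGALG00010026128, chromosome 8, 20836596 to 20842887), the main cytosolic form, had 92611 reads or 2220 TPM in the whole crista, rank 37 of all genes, and 0 reads in both hair cells. *PRDX4* of the endoplasmic reticulum (337 TPM in the crista) and the cytosolic *PRDX6* (241 TPM) were likewise at 0 in both. Only *PRDX3*, the mitochondrial form, was read, with 98 reads in the type I cell (95% interval 79.6 to 119), 101 reads in the cell of type II (82.3 to 123) and 14619 in the crista. Its TPM of 8.64 and 8.32 in the hair cells was 39.3- and 40.8-fold below the 340 TPM of the organ, a ratio of 0.0254 and 0.0245 that in CPM was 0.0419 and 0.0390. The summed level of the class was 363- and 377-fold lower in the hair cells.

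Where no read was counted the limit was set at 3 reads for that library, which for *PRDX1* gives a level at least 9151-fold lower in the type I cell and at least 9670-fold lower in the cell of type II than in the organ. Such bounds and all intervals given here cover counting error only. The reads carry no molecular identifiers, so that copies made by amplification are counted apart, and a transcript lost before amplification leaves no trace. Of all genes at 1000 or more whole-crista TPM, 83.3% were read in both hair cells, and of the 5 redox genes at that level *PRDX1* alone was not.

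Thioredoxin itself was abundant in every library. *TXN* (ENSGALG00010005495, chromosome Z, 67208387 to 67213741), the cytosolic disulphide reductant, had 34990 reads or 2729 TPM in the type I cell, 44028 reads or 3124 TPM in the type II cell, and 66021 reads or 2298 TPM in the crista. In TPM the hair cells were 1.19 and 1.36 times the organ, but in CPM they were 3.32 and 3.77 times. The mean transcript length that the files give for *TXN* was 1647 and 1702 bases in the hair cells and 1032 bases in the crista, and TPM is scaled to length.

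The enzymes and partners that surround thioredoxin were mostly unread in the hair cells. The reductases *TXNRD1*, *TXNRD2* and *TXNRD3*, selenoproteins that recharge thioredoxin with NADPH, had no read there and 33.0, 11.2 and 77.6 TPM in the crista. Mitochondrial thioredoxin *TXN2* was at 0 in both cells and at 300.1 TPM in the crista. *TXNL1*, a thioredoxin-like protein bound to the proteasome, had 135 and 124 reads, or 14.3 and 12.5 TPM against 171 TPM.

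2 genes for proteins with a thioredoxin fold stood above the organ by less than 2-fold in TPM. *TXNDC17*, a cytosolic thioredoxin-related protein, had 57.9, 54.5 and 35.4 TPM in the type I cell, the type II cell and the crista. *TXNDC15*, a transmembrane protein linked to primary cilia, had 154, 160 and 99.97 TPM. In CPM *TXNDC17* was past 2-fold, at 3.43 and 3.38 times the organ, and *TXNDC15* was past it in the type I cell alone, at 2.03 and 1.89 times. The other thioredoxin-named genes, *TXNDC5*, *TXNDC9*, *TXNDC11*, *TXNDC12*, *TXNDC16*, *TXNL4A* and *TXNL4B*, had no read in the hair cells and between 7.40 and 271 TPM in the organ.

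Glutaredoxins use glutathione in place of thioredoxin, and several carry iron-sulphur clusters. *GLRX3*, a cytosolic member of this kind, had 385 and 373 reads, or 27.6 and 24.6 TPM against 89.0 TPM in the crista. *GLRX2*, found in mitochondria, had 93 and 78 reads, or 13.6 and 10.8 TPM against 158 TPM, a ratio of 0.0861 and 0.0684 that in CPM was 0.139 and 0.106. *GLRX* and *GLRX5* had none. The 2 glutaredoxins that were read thus lay 3.22- to 14.6-fold below the organ.

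None of the 3 genes for making and reducing glutathione had a read in a hair cell. *GCLC* and *GCLM*, the subunits of glutamate-cysteine ligase that makes the rate-limiting step, had 43.6 and 93.2 TPM in the crista, and *GSR*, the glutathione reductase, had 86.1 TPM. At 30 to 100 whole-crista TPM, the band of all 3, 17.7% of all genes were read in both hair cells.

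Glutathione S-transferases couple glutathione to foreign and oxidised compounds. Only *GSTA2* was read at any depth, with 430 reads in the type I cell (95% interval 390 to 473), 299 reads in the cell of type II (266 to 335) and 29454 in the crista, or 39.6, 26.4 and 642 TPM. It lay 16.2- and 24.4-fold below the organ. Its nearest redox genes on chromosome 3, *GSTA3* 24.7 kb away and *GSTA4* beyond it, were at 0 in both cells and at 272 and 741 TPM in the crista. How the counting placed reads shared by these related genes was not examined. *GSTM3* had 14 and 2 reads, and *GSTK1*, *GSTM2*, *GSTO2*, *GSTT1*, *GSTT1L* and *GSTZ1* had none, with between 16.9 and 230 TPM in the organ.

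Methionine sulphoxide reductases repair oxidised methionine. *MSRA* (87.9 TPM in the crista), *MSRB3* (50.9 TPM) and *MSRB1* (21.2 TPM) were unread in both cells. Variants of the human *MSRB3* are known to cause deafness.

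Among the 13 SELENO-named genes the hair cells differed from the organ in which one prevailed. The chicken has *SELENOP1* and *SELENOP2*, both named after selenoprotein P, which is secreted and carries selenium between cells. Whether the product of *SELENOP2* carries selenium cannot be read from transcript levels. *SELENOP2* (ENSGALG00010026066, chromosome 8, 20715680 to 20718064) had 15179 reads or 2022 TPM in the type I cell, 16329 reads or 2326 TPM in the type II cell, and 25694 reads or 652 TPM in the crista, 3.10 and 3.57 times the organ. *SELENOP1* (ENSGALG00010014658, chromosome Z, 14122131 to 14130851) had 110, 108 and 1308 TPM in the same order, 11.9- and 12.1-fold below the organ, a ratio of 0.0839 and 0.0830 that in CPM was 0.148 for both cells. *SELENOP2* was therefore the major form in the hair cells, with 94.6% and 95.4% of the TPM of the SELENO-named genes, and *SELENOP1* the major form in the organ, with 34.5%.

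*SELENOT*, an enzyme of the endoplasmic reticulum, was the remaining SELENO-named gene read in both cells, with 140 and 114 reads and 5.74 and 4.44 TPM against 144 TPM in the organ, a ratio of 0.0399 and 0.0308 that in CPM was 0.0606 and 0.0445. *SELENOF* (749 TPM in the crista), *SELENOW* (408 TPM), *SELENOM* (286 TPM) and *SELENOS* (117 TPM) were at 0 in both. So were *SELENOK*, *SELENOI*, *SELENOI2*, *SELENOO* and *SELENOOL*, with 3.63 to 53.7 TPM in the organ. A list of 19 genes taken as selenoprotein genes, *SELENOP2* included, was drawn up after the values were seen. On it 7 were read in both hair cells, *SELENOP2* among them. Over all genes detected in the crista 10.9% were, and 3.41 to 83.3% from the lowest to the highest band of crista TPM. *SELENOP2* lies 118.5 kb from *PRDX1* on chromosome 8, so that a gene among the most abundant of the hair cells and an unread one are close neighbours.

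The metallothioneins *MT3* and *MT4*, small cysteine-rich proteins that bind zinc and copper and lie 1.90 kb apart on chromosome 11, had 121 and 69.1 TPM in the crista and no read in the hair cells. The haem oxygenases *HMOX1* and *HMOX2*, which open haem to biliverdin, and the quinone reductase *NQO1* were also unread there, at 48.3, 113 and 25.2 TPM in the organ. Sestrins restrain growth signalling under stress. *SESN1* had 498 reads in the type I cell and 620 in the cell of type II, or 20.5 and 25.3 TPM, and lay 3.88- and 3.15-fold below the 79.5 TPM of the organ. *SESN3* had none in the cells and 91.0 TPM in the crista. *SESN2* and *SESN4* had no read in the cells and 5 and 73 reads in the crista, too few to enter the comparison with the organ.

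For the comparison of the hair cells with the organ, 70 of the 72 genes had at least 100 reads in the 3 libraries together. A gene was called higher or lower where both hair cells lay at least 2-fold from the crista in TPM in the same direction. On this count 4 were higher (5.71%, background 4.86%), namely *SOD1*, *GPX7*, *SELENOP2* and *CAT*, and 61 were lower (87.1%, background 92.2%). *TXN*, *GPX4*, *SOD2*, *TXNDC15* and *TXNDC17* were not called. Both shares were near those of all 13138 genes tested. Most genes of the organ had no read in a hair cell, and in a tissue library fewer cells of a type and less RNA per cell cannot be told apart.

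A filter on hair cell reads alters these shares for all genes, since it keeps a gene only where the hair cells are high enough. Of the 19 that reached 100 reads in the hair cells together, a limit chosen after the values were seen, the same 4 were higher than the crista (21.1%, background 42.5%) and 10 were lower (52.6%, background 32.1%). These genes passed through the same hair cell reads that are then compared, so that no conclusion is drawn from these shares or from the medians that follow. As a median, the ratio over the 19 genes that reached 10 reads in every library was 0.410 for the type I cell and 0.370 for the cell of type II, where over 1673 such genes it was 1.08 and 0.965. In CPM these medians were 0.571 and 0.421 against 1.56 and 1.32.

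**Figure D4:**
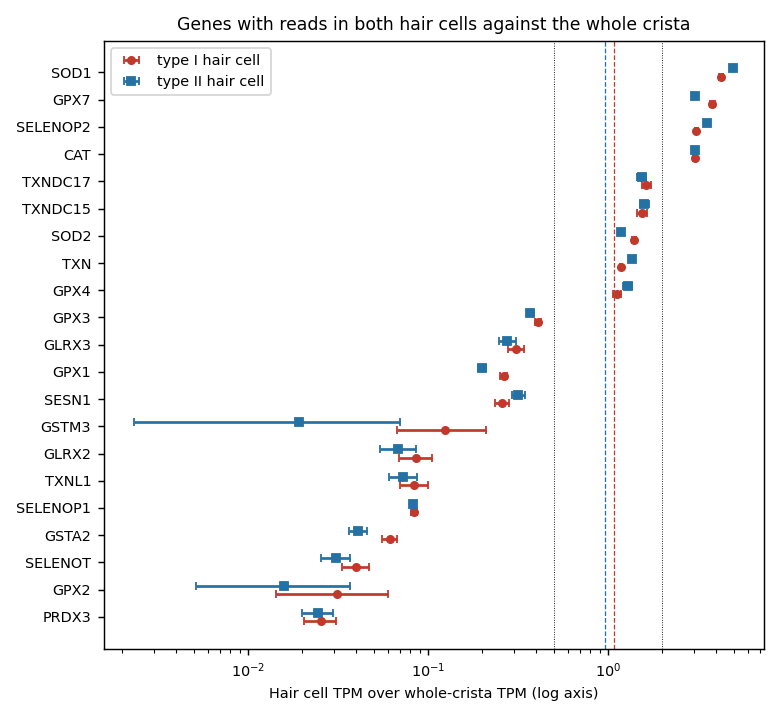
Ratio of hair cell TPM to whole-crista TPM on a log axis for the 21 genes with reads in both hair cells, type I as circles and type II as squares, with 95% counting intervals. Dashed lines mark the median ratio of all genes with at least 10 reads in every library, and dotted lines 2-fold either way. The 9 genes above 1 and the 12 below it are the same in both hair cells.

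Between the 2 hair cells, 19 redox genes had at least 100 reads in both together. None lay 2-fold apart in TPM, where 3.95% of the 1493 genes compared did (2.95% with the type I cell higher). In TPM 12 of the 19 were higher in the type I cell (63.2%, background 57.5%), and in CPM 15 were. Of the 17 redox genes with 100 reads in each cell 13 were higher in CPM, against 851 of 1327 such genes. Type I over type II ratios ran from 0.812 for *SESN1* (counting interval 0.720 to 0.915) to 1.501 for *GSTA2* (1.29 to 1.75). Between these were *GPX1* at 1.31 (1.226 to 1.399), *GPX7* at 1.24 (1.20 to 1.29), *SOD2* at 1.18 (1.14 to 1.22), *SOD1* at 0.859 (0.842 to 0.877) and *TXN* at 0.873 (0.861 to 0.886). The counting interval was clear of 1 for 11 of the 19. That does not set a gene apart, because the SD of the log2 ratio was 0.38 over the 1327 genes that reached 100 reads in each cell and 0.25 over the 17 redox genes among them. *SELENOP2* (0.869), *GPX4* (0.875) and *TXNDC15* (0.966) lay on the other side of 1 in CPM, at 1.03, 1.06 and 1.07. With 1 cell of each type no difference between the types was tested.

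**Figure D5:**
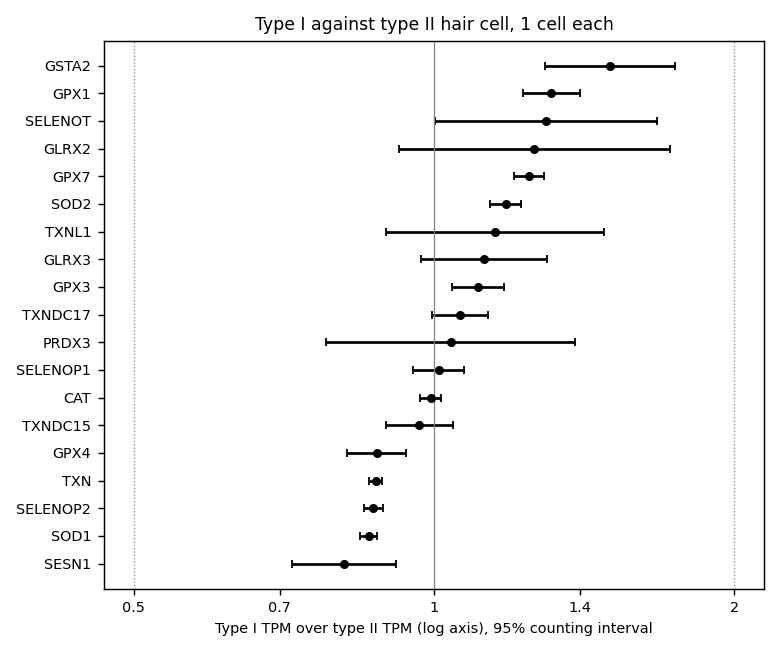
TPM of the type I cell divided by that of the type II cell, on a log axis, for the 19 redox genes with at least 100 reads in the hair cells together. Points are ratios of 1 cell to 1 cell, bars are 95% counting intervals, and dotted lines mark 2-fold. All 19 ratios lie between 0.812 and 1.501.

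The genes with fewest reads bore no comparison between the cells. *GSTM3* had 14 reads in the type I cell (95% interval 7.65 to 23.5) against 2 in the type II cell (0.242 to 7.22), a TPM ratio of 6.44 with a counting interval from 1.48 to 58.4. Its symbol matched no single RefSeq gene, unlike the other 71. *GPX2* had a ratio of 1.98 (0.597 to 7.54).

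Other genes of the pathway were followed in 7 lists of 80 genes, of which 68 matched a symbol. In both hair cells 16 of the 68 were read, and 67 in the crista. Of all genes detected in the crista 10.9% were read in both hair cells. By crista TPM the share was 3.41% under 10, 17.7% at 30 to 100, 30.5% at 100 to 300, 56.1% at 300 to 1000 and 83.3% above that. The counts of genes read in each list below are to be set beside the share at each gene's own level, and are not read as an excess. Of the 66 compared, 3 were higher in both hair cells (background 4.86%) and 61 lower (background 92.2%). None of the 8 regulators around NRF2, the transcription factor that switches on many of these enzymes, had a read in a hair cell, where 3.41% of all genes under 10 TPM in the crista, 360 of the 3589 at 10 to 30 TPM, 17.7% at 30 to 100 TPM and 30.5% at 100 to 300 TPM did in both. *NFE2L2*, which encodes NRF2, stood at 82.6 TPM and *SQSTM1* at 130 TPM in the crista. Of 8 genes that supply NADPH, *IDH1* alone was read, at 121 and 117 TPM against 836 TPM. *TALDO1* followed it in the organ at 253 TPM and was unread in the cells.

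Of 12 further genes of glutathione metabolism, *GGT7* and *HAGH* were read, and both were higher in the hair cells. Among all genes with at least 100 reads in the hair cells together, 42.5% were higher in both. *GGT7*, a relative of the enzymes that cleave glutathione outside the cell, had 24532 and 28676 reads, or 579 and 660 TPM, and 966 reads or 4.95 TPM in the crista. It was thus more than 100 times higher in both hair cells, at 117 and 133 times. *HAGH*, a glyoxalase that releases glutathione, had 175 and 214 TPM against 72.1 TPM. *MGST3*, a microsomal glutathione transferase, and *ESD*, an esterase that releases glutathione, were the most abundant of this list in the organ at 197 and 143 TPM and were at 0 in both cells.

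On the list around selenocysteine incorporation are 8 genes, not all of which act in the insertion itself. *EEFSEC*, the dedicated elongation factor, had 154 and 146 reads, or 3.97 and 3.51 TPM against 17.8 TPM. *SEPHS1* (73.4 TPM in the crista) and *SECISBP2L* (69.0 TPM) were unread in the hair cells. Among other peroxide and redox genes, *FTH1*, the ferritin chain that stores iron, had 2774 and 2922 TPM, 2.56- and 2.43-fold below the 7111 TPM of the organ. *PRXL2A* had 544 and 419 TPM against 223 TPM, past 2-fold in the type I cell alone. *TMX1*, a thioredoxin-fold protein of the endoplasmic reticulum, had 2352 and 2151 reads, or 131 and 119 TPM, and only 45 reads or 0.531 TPM in the crista. *PARK7* was at 0 in the cells and at 488 TPM in the organ.

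All 10 genes for disulphide exchange in the endoplasmic reticulum were lower in the hair cells, 3 of them without a read, where 92.2% of all genes tested were lower. *P4HB*, protein disulphide isomerase, had 13.4 and 8.88 TPM against 1220 TPM, *PDIA4* 12.5 and 8.19 TPM against 887 TPM, and *PDIA6* 12.2 and 9.38 TPM against 493 TPM. Among 11 sources of superoxide and peroxide, the crista held *NOX3*, the NADPH oxidase of the inner ear, at 116 TPM and its organiser *NOXO1* at 210 TPM. In the hair cells *NOX3* had no read and *NOXO1* 9 and 3 reads. *CYBA*, the subunit these oxidases share, had 17.6 and 13.8 TPM against 26.9 TPM in the organ.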

How the data were processed

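Each group has 1 library, so no test between groups was made. The authors deposited estimated counts of reads and TPM for each gene of each library, and a name table that is identical in the 3 libraries and whose length column was not used. For the whole crista the study's methods give the Illumina DRAGEN RNA pipeline with default settings on GRCg7b from Ensembl. Of the single-cell libraries the paper names no pipeline, and the submitters' processing notes list DRAGEN, bcl2fastq 2.20.0.422, GRCg7b and galGal4. The sample labels give another RNA input and kit version for the whole crista than the methods, which are followed here.

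Gene positions are those of RefSeq on GRCg7b for the 71 symbols with a single match. A gene was detected with at least 1 estimated read. Reads were rounded for exact Poisson intervals, and a gene without a read took a limit of 3 reads (0.278, 0.251 and 0.0445 CPM). Ratios of TPM have exact conditional intervals. Shares have exact binomial (Clopper-Pearson) intervals. Calls needed 2-fold and at least 100 reads together. Alternatives were other read, TPM and CPM thresholds, CPM and median-ratio scaling, and 1.5- or 4-fold. Genes named are those with a hair cell read, the 20 highest in the crista, and listed pathway genes with at least 100 hair cell reads or among the 2 highest of their list in the crista. Other members are named to account for each of them, and other pathway genes and markers after their values were seen. Members and lists were chosen with earlier results of these data known. Scripts ran in Python (3.11.15) with scipy (1.17.1), numpy (2.4.6), matplotlib (3.10.9) and pandas (2.3.3), and were tested on simulated data.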

Additional observations from a re-analysis of the deposited data

How the results depend on the processing

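With 1 library per group, no value has a replicate check, and detection in a hair cell is limited by 1 cell's capture as well as by depth. No paired analysis was possible because each group holds a single library and no result comes from a test. Of 44 alternatives for the counts, 39 stayed within 1.5 times. The genes detected in both hair cells numbered 19 to 21 under every threshold tried. Between the hair cells, the count past 2-fold of 0 became 1 with at least 10 reads together (*GSTM3*) and 1 at 1.5-fold (*GSTA2*). At these settings 12.7% of 1855 and 16.5% of 1493 genes were past the limit over all genes, so neither gene is set apart. Against the crista, the 4 genes higher became 1 at 4-fold (*SOD1*) and 6 in CPM or with reads scaled by the median ratio, where *TXN* and *TXNDC17* joined. *GPX3* left the lower genes in CPM, which numbered 60, where 91.5% of all genes tested were lower. The 61 lower became 10 when at least 100 reads in the hair cells were required, a filter that removes unread genes and was chosen after the values were seen. Over all genes that passed this filter, 32.1% were lower. Without the highest gene of each class, 0 in place of 2 classes were higher in the hair cells, but catalase is a class of 1 gene and was emptied by this, so that only the loss of the superoxide dismutases bears on it. The lower classes then numbered 9 in place of 8, with the thioredoxin-named and SELENO-named genes added and glutathione peroxidases lost, and 7 in CPM, where glutathione peroxidases were lost. Of 225 alternatives for single genes and classes, 129 moved and 96 stayed, for genes by whether the value left the counting interval of the main ratio. The sizes of most single ratios thus depend on the scaling. *SELENOP2* in the type I cell, for example, went from 3.10 to 2.37 times the crista with reads scaled by the median ratio. A ratio of 1 was crossed by 15 of the 225, of which 12 were between the hair cells, and no called difference turned round. The other crossings were *GPX4* in the type I hair cell (0.951 with reads scaled by the median ratio) and the thioredoxin-named class in CPM (1.74 and 1.94).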

Other observations

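Grouped by step, in lists drawn up after the values were seen and given as a description with no test between them, the genes divided as follows. Of all genes detected in the crista 10.9% were read in both hair cells. By crista TPM the share was 3.41% under 10, 30.5% at 100 to 300, 56.1% at 300 to 1000 and 83.3% at 1000 or more. Of 14 dismutases, catalase, glutathione peroxidases and peroxiredoxins, 9 were read in both hair cells, with summed levels of 5873 TPM in the type I hair cell, 6056 TPM in the type II hair cell and 8685 TPM in the whole crista. All of the 14 but *SOD3* and *GPX8* stood above 100 TPM in the crista. Of 7 genes for NADPH-using reductases and glutathione synthesis (*GSR*, *TXNRD1*, *TXNRD2*, *TXNRD3*, *GCLC*, *GCLM* and *NQO1*), 0 were read in a hair cell, and they summed to 370 TPM in the organ, where each stood below 100 TPM. At 10 to 30 whole-crista TPM 360 of 3589 genes were read in both hair cells, and at 30 to 100 TPM 566 of 3199.

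The lists by compartment are partial and leave out many of the 72 genes, so that their counts and sums hold for the listed genes only. Among those left out, *TXNDC17*, *TXNL1*, *GSTA2* and *SESN1* were read in both hair cells, and others such as *GSTK1* and *MSRB3* were not. To be read against the same shares of all genes, 4 of 11 listed cytosolic genes were read in both hair cells (*SOD1*, *TXN*, *GPX1* and *GLRX3*). They summed, with the unread ones, to 6380 and 7111 TPM against 8258 TPM in the organ. Of 6 mitochondrial genes 3 were read (*SOD2*, *PRDX3* and *GLRX2*), with 360 and 306 TPM against 1157 TPM. Of 12 genes of the endoplasmic reticulum, *GPX7* and *SELENOT* were read in both cells, with a sum of 577 and 464 TPM against 2280 TPM. Of the 4 secreted forms all but *SOD3* were read, and their sums of 2683 and 2933 TPM against 3337 TPM were carried by *SELENOP2* in the hair cells and by *GPX3* and *SELENOP1* in the organ.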
